A study of Mus musculus with 6 samples.

Results

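The genes described here are those of small nucleolar RNAs and of their relatives in Cajal bodies, taken as every probe set annotated to a single symbol starting with Snord, Snora or Scarna. The rule gave 81 probe sets for 78 genes, out of 23521 probe sets for 22180 genes that carried 1 symbol. By symbol there were 47 C/D box genes with 47 probe sets, 26 H/ACA box genes with 28 probe sets and 5 Cajal body genes with 6 probe sets. They were measured in total RNA of c-Kit+ leukemic cells sorted from mouse spleen, on 6 Affymetrix whole-transcript arrays, 1 array per sample. The 3 Chd7f/f samples came from mice of the genotype Chd7f/f, Mx1-Cre, Cbfb+/56M, and the 3 samples called the control here from Mx1-Cre, Cbfb+/56M mice with unmodified Chd7. Both genotypes carried the conditional Cbfb-MYH11 allele 56M and Mx1-Cre, a recombinase under an interferon-inducible promoter that pIpC switches on in blood and in other tissues. Mice of both genotypes also received the mutagen ENU, and cells were taken at the end stage of leukemia. The age and sex of the mice are not given in the labels used here. Values are levels on the log2 scale, and a difference is Chd7f/f minus control.

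Small nucleolar RNAs guide enzymes to ribosomal RNA. C/D box RNAs direct methylation of the ribose and sit in a particle with the methyltransferase Fbl and the proteins Nop56, Nop58 and Snu13, while H/ACA box RNAs direct pseudouridylation with the enzyme Dkc1 and the proteins Gar1, Nhp2 and Nop10. Small Cajal body RNAs use the same boxes and proteins to modify the small nuclear RNAs of the spliceosome. A few members, U8, U17 and U22 among them, act in cleavage of the ribosomal RNA precursor. Most mammalian small nucleolar RNAs are cut out of introns, often of genes for ribosomal proteins, nucleolar proteins and translation factors, or of long noncoding RNAs whose spliced product is short-lived.

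The targeted gene Chd7, which encodes a chromatin remodelling ATPase, was at 5.48, 6.50 and 5.91 on the Chd7f/f arrays, against 6.17, 7.54 and 5.32 on the control arrays. These ranges overlapped, and a whole-transcript value does not check the deletion of single exons. Kit, the basis of the sort, was at 12.48, 11.69 and 11.91 in Chd7f/f cells, against 11.72, 12.12 and 11.68 in control cells. Control replicate 2 stood apart in Xist, at 10.08 against 3.30 to 3.88 on the other 5 arrays. It also stood apart in the Y-linked gene Eif2s3y, at 4.43 against 8.72 to 9.11 on the others. These values mark a female sample on that array and male ones elsewhere, so sex was not balanced between the genotypes. The part of sex in the values below was not tested. Chd7f/f replicate 1 stood apart in a list of 19 measured DNA replication genes, whose mean lay 1.44 below its 6-array average there and between 0.12 below and 0.63 above it on the other arrays. The summed level of 8 monocyte and macrophage markers was 54.5, 48.7 and 59.1 on the Chd7f/f arrays, against 49.8, 52.6 and 46.2 on the control arrays, and 7 of the 8 were higher in Chd7f/f on average. For erythroid markers (4 of 8 measured) the sums were 33.7, 37.6 and 39.6 in Chd7f/f, against 42.0, 35.5 and 37.4 in the control. The part of these other cell types in the values below was not tested, and in bulk RNA fewer cells of a type and less RNA per cell cannot be told apart.

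Small nucleolar RNA probe sets lay high on every array. Their median was 4.65, 4.43 and 4.50 above the array's own median on the Chd7f/f arrays, against 4.10, 4.43 and 4.23 above it on the control arrays. The same quantity over all 23521 probe sets was between 0.22 and 0.33 on the 6 arrays. Of the 81 probe sets, 73 (90.1%) lay above the array median on all 6 arrays, compared with 50.1% of all probe sets, and 32 had a mean of 10 or more. MicroRNA genes, another class of short RNA on the array, were low. The median of their 511 probe sets lay 1.13, 1.13 and 1.11 below the array median in Chd7f/f, against 1.13, 1.15 and 1.11 below it in the control, and 21.3% were above it on all arrays. These figures place probe sets within an array and are not abundances, since probes differ in their response. The annotated genes are 48 to 248 bases long with a median of 80.5, a length that column kits recover in part, and RNA of the mature form and of the surrounding intron cannot be told apart in 1 value per probe set.

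The classes differed in level. The median C/D box probe set was 4.93, 4.84 and 4.98 above the array median in Chd7f/f, against 4.62, 4.88 and 4.66 in the control. The H/ACA median was 3.04, 3.34 and 3.01 above it in Chd7f/f, against 3.06, 3.33 and 3.01 in the control. It was below the C/D median on each of the 6 arrays. The median of the 6 Cajal body probe sets was 5.64, 5.24 and 5.13 above the array median in Chd7f/f, against 4.71, 5.26 and 4.87 in the control. Chd7f/f replicate 1 was highest and control replicate 1 lowest for the Cajal class, while the H/ACA and C/D medians moved less from array to array.

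**Figure D1:**
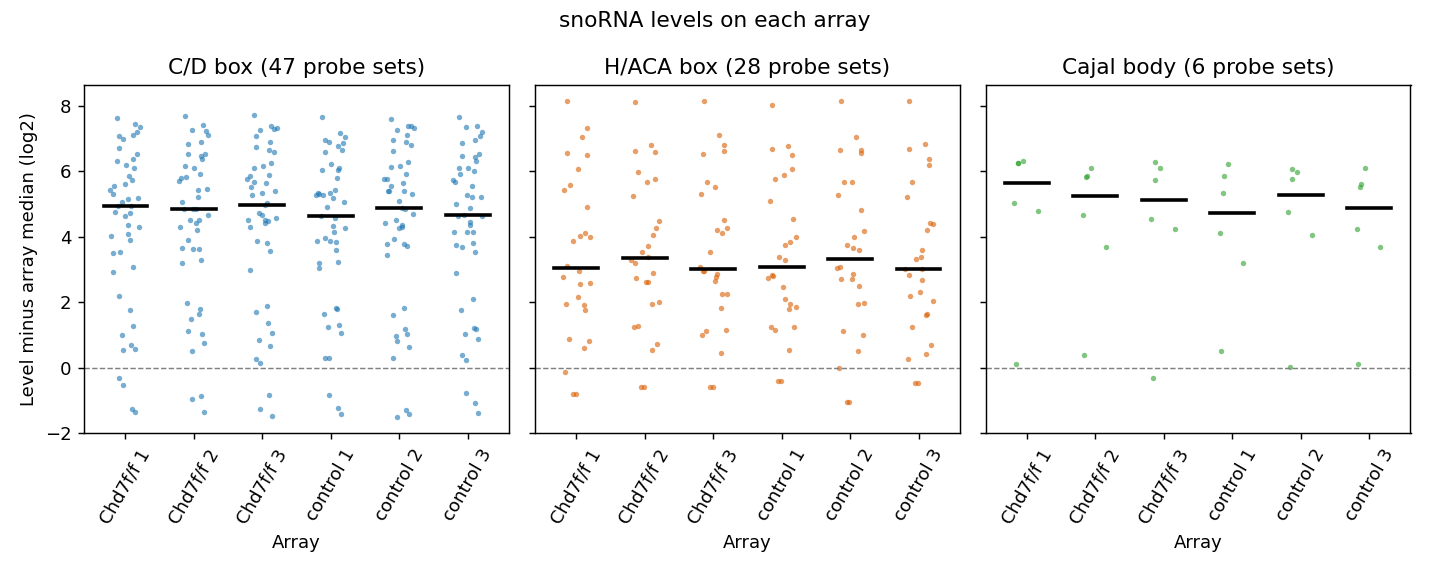
Each point is 1 probe set, and the vertical axis gives its log2 level minus the median of all probe sets on that array, with black bars at the class median. The C/D box bars lie at 4.62 to 4.98, the H/ACA bars at 3.01 to 3.34 and the Cajal body bars at 4.71 to 5.64 on the 6 arrays. Several C/D and H/ACA probe sets lie near or below 0, and in the Cajal class Scarna8 alone does.

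Among C/D box RNAs the highest mean level was that of Snord87, which lies in the noncoding host gene Snhg6. It was at 12.44, 12.42 and 12.49 on the Chd7f/f arrays, against 12.50, 12.38 and 12.36 on the control arrays. Snord110, from the gene of the C/D particle protein Nop56, was at 12.28, 12.13 and 12.15 in Chd7f/f cells, against 12.00, 12.18 and 12.09 in control cells. Both sets of values overlapped between genotypes. Snord49b, in the noncoding gene 2410006H16Rik, was at 12.16, 11.82 and 12.10 in Chd7f/f, against 11.87, 12.12 and 11.90 in the control. Snord55 was at 12.02, 11.96 and 12.07 in Chd7f/f, against 11.71, 12.18 and 11.81 in the control. Snord22, which is U22, an RNA needed in frog oocytes to process 18S ribosomal RNA, followed with 11.82, 11.98 and 12.05 in Chd7f/f, against 11.73, 12.05 and 12.06 in the control. In all 5 the control range spanned part of the Chd7f/f range, and none of the 5 differences exceeded 0.12.

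The highest H/ACA probe set was that of Snora33 within Rps12, at 12.97, 12.85 and 12.92 in Chd7f/f, against 12.85, 12.93 and 12.87 in the control. A second Snora33 probe set gave 7.36, 7.34 and 7.64 in Chd7f/f, against 6.93, 7.63 and 7.40 in the control, so probe sets of 1 gene differed far more than genotypes. Their differences were 0.03 and 0.13. Snora21, within Rpl23, was at 11.87, 11.53 and 11.87 in Chd7f/f, against 11.62, 11.82 and 11.54 in the control. Snora16a, within Snhg12, was at 11.31, 11.30 and 11.39 in Chd7f/f, against 11.34, 11.44 and 11.10 in the control. Neither gene separated the genotypes. Snora34, from an intron of the chromatin gene Kansl2, was at 11.38, 11.35 and 11.31 in Chd7f/f, against 11.53, 11.43 and 11.40 in the control. It was the only member with every Chd7f/f value below every control value, by a difference of -0.11 (SE 0.09).

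At the other end, 5 probe sets lay below the array median on all arrays, and 3 (Snora20, Snord52 and Scarna8) were above it on some arrays only. The lowest was Snord90, within Rc3h2, at 3.45, 3.35 and 3.28 in Chd7f/f, against 3.41, 3.35 and 3.33 in the control. Snord85 was at 3.55, 3.85 and 3.94 in Chd7f/f, against 3.59, 3.48 and 3.62 in the control. Snord91a, within Tsr1, was at 4.28, 3.76 and 3.49 in Chd7f/f, against 3.99, 3.26 and 3.95 in the control. The remaining 2 were the probe sets of Snora19, which hold identical values on all arrays and so are 1 measurement, leaving 80 distinct ones. Snora19 was at 4.02, 4.12 and 4.17 in Chd7f/f, against 4.43, 3.73 and 4.23 in the control. Its RefSeq record in GRCm38.p6, chr19:60774330-60774385, is 56 bases long, lies within Eif3a, a gene for a translation initiation factor, and falls inside the record of a microRNA hairpin. The hairpin, Mir3084-2 at chr19:60774329-60774397 on the minus strand, is shown because it covers the whole annotated Snora19 gene. Capitals mark its 2 mature microRNAs.
Mir3084-2: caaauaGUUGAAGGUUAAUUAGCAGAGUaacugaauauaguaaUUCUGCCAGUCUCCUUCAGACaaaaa

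Snora35 lies in Htr2c, a serotonin receptor gene of the brain that is silent in most tissues. Snora35 was at 5.41, 5.26 and 5.22 in Chd7f/f, against 5.38, 5.29 and 5.14 in the control. That is 0.51 above the array median on average, among the lowest members, but above it on all 6 arrays. Htr2c itself was at 3.84, 3.21 and 3.55 in Chd7f/f, against 3.31, 3.87 and 3.62 in the control. The array medians lay between 4.72 and 4.84, so this member lay above them while its host lay below them. The brain families of imprinted loci, Snord113, Snord114, Snord115, Snord116 and Snord64, had 0 probe sets of a single symbol.

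The genotypes did not differ detectably in any member. With limma and Benjamini-Hochberg adjustment over all 23521 probe sets, 0 members had an adjusted p under 0.05 (0% of all probe sets). At an unadjusted p under 0.05 there were also 0 of 81, where 2.40% of all probe sets passed. With a fold of at least 1.5 required as well, 0 were higher (0.259% of all probe sets) and 0 lower (0.315%). The smallest unadjusted p of a member was 0.0848, for Scarna17, with an adjusted p of 0.9997 (limma). Values did not overlap for 1 member that was higher in Chd7f/f (3.13% of all probe sets) and for 1 that was lower (4.67%). These counts depended on single arrays. Without Chd7f/f replicate 2, 4 members had an unadjusted p under 0.05 (2.27% of all probe sets in that fit) and 15 were higher with no overlap (7.50% of all probe sets). Without control replicate 2 these counts were 2 (3.53%) and 13 (8.83%). Differences ran between -0.28 and 0.76, with 64 of 81 under 0.2 in size. The median difference was 0.04, with 55 members higher and 26 lower in Chd7f/f. Over all probe sets the median was -0.02, and 45.2% were higher. By class the medians were 0.03 for C/D box RNAs (31 higher, 16 lower), 0.07 for H/ACA box RNAs (19 higher, 9 lower, or 0.09 with 8 lower when the identical Snora19 rows count once) and 0.32 for Cajal body RNAs (5 higher, 1 lower). The 5 higher Cajal body probe sets include both of Scarna17, so that gene counts more than once in this median.

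Precision set what could be seen. The 95% interval of the difference lay within a 2-fold change in either direction for 75 of the 81 probe sets, and within a 1.5-fold change for 49. Over all probe sets these counts were 20736 and 15536 of 23521. The median SD among arrays of 1 genotype was 0.23 for members, against 0.19 for all probe sets and 0.24 for the 2402 probe sets at or above the members' median level.

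**Figure D2:**
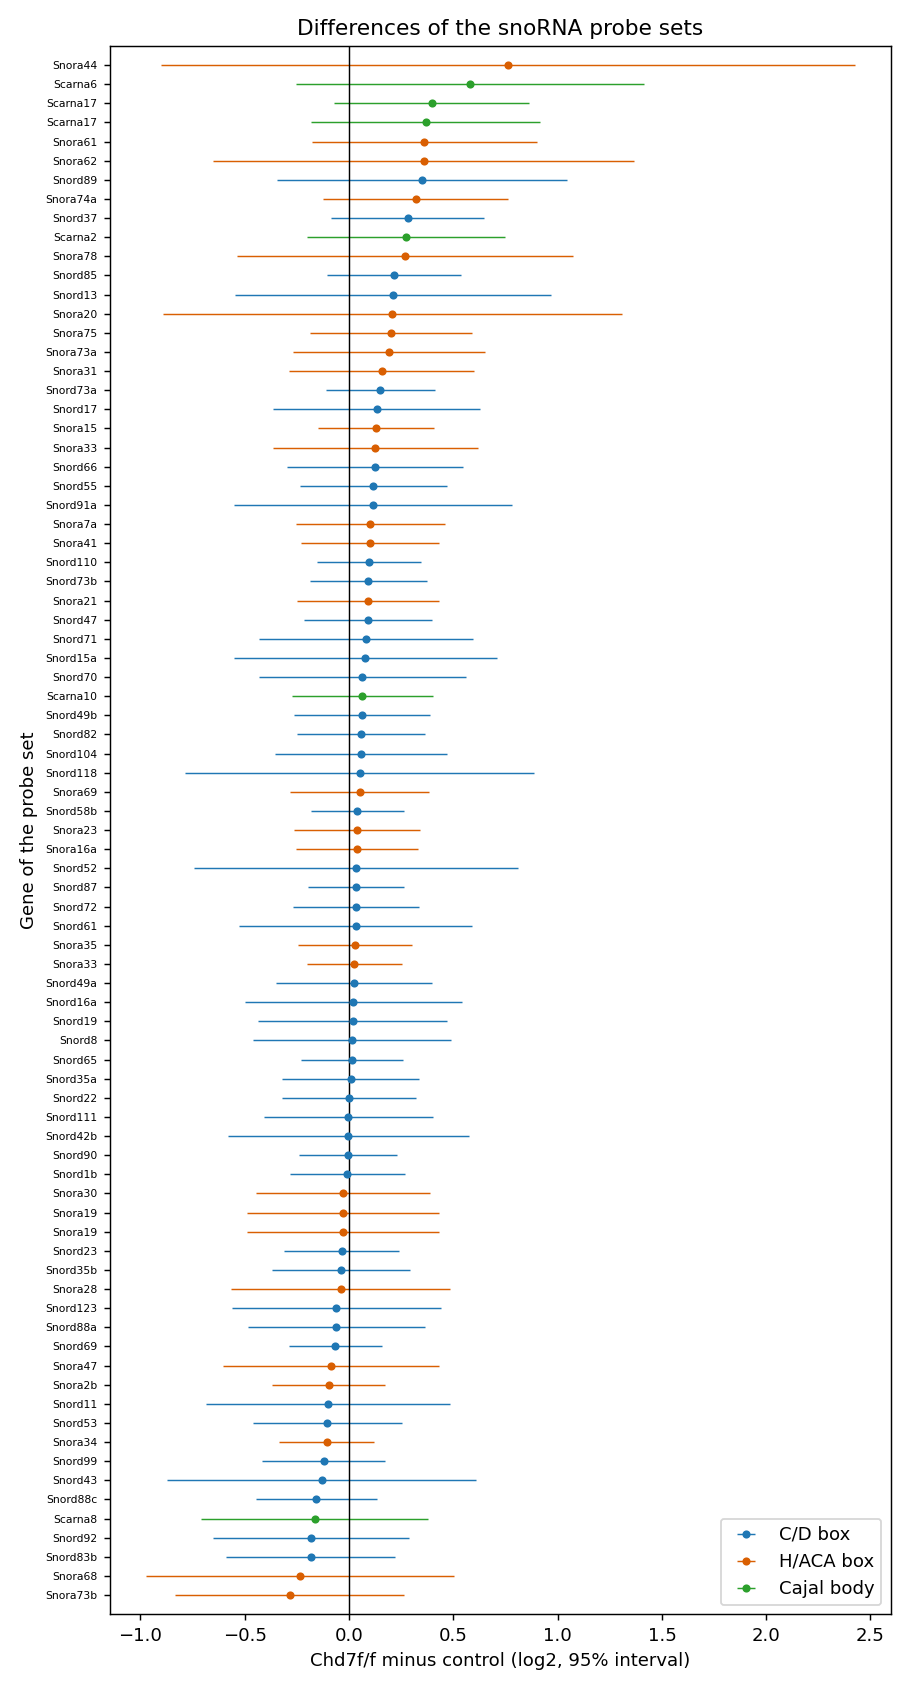
Each row is 1 probe set, with its Chd7f/f minus control difference on the log2 scale as a point and the 95% interval of the fit across all probe sets as a bar, coloured by class. All 81 intervals include 0, and the widest, of Snora44, runs from -0.90 to 2.43.

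Cajal body probe sets held 4 of the 10 largest positive differences, and 2 of these were probe sets of the same gene, Scarna17. Scarna6, from an intron of the autophagy gene Atg16l1, was at 9.60, 8.40 and 9.01 in Chd7f/f, against 8.03, 8.85 and 8.39 in the control. The difference was 0.58 (SE 0.35), and the groups overlapped, with control replicate 2 above Chd7f/f replicate 2. Scarna17, within the noncoding gene Gm41774, was at 11.07, 10.54 and 10.51 in Chd7f/f, against 10.17, 10.55 and 10.22 in the control, by 1 probe set. The second Scarna17 probe set gave 9.85, 9.38 and 9.30 in Chd7f/f, against 8.94, 9.55 and 8.95 in the control. Control replicate 2 was the array that kept the groups from separating in both. The differences were 0.40 (SE 0.19; 95% interval -0.07 to 0.87) and 0.37 (SE 0.23).

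Scarna2 lies inside no annotated protein-coding or long noncoding gene. It was at 11.08, 10.59 and 11.04 in Chd7f/f, against 10.69, 10.86 and 10.33 in the control, with a difference of 0.27 (SE 0.20). Scarna10, within the condensin gene Ncapd2, was at 11.13, 10.82 and 10.86 in Chd7f/f, against 11.07, 10.76 and 10.80 in the control. Its difference was 0.06, and Chd7f/f replicate 1 and control replicate 1 were its highest arrays. Scarna8, within Haus6, a gene of the spindle complex augmin, was near the array median at 4.94, 5.09 and 4.44 in Chd7f/f, against 5.34, 4.81 and 4.83 in the control (difference -0.16, SE 0.23).

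Chd7f/f replicate 1 was the highest of the 6 arrays for 5 of the 6 Cajal body probe sets, both of Scarna17 among them, and for 32 of all 81 members. Over all 23521 probe sets it was the highest for 4281, and for 549 of the 2402 at or above the members' median level. The median Cajal body probe set deviated from its own 6-array mean by 0.42, -0.03 and -0.01 on the Chd7f/f arrays, against -0.21, 0.07 and -0.31 on the control arrays. Without Chd7f/f replicate 1 the median Cajal difference was 0.19, and without control replicate 2 it was 0.45. Replicate 1 of Chd7f/f is also the array on which the DNA replication list was lowest, and the part of that in these values was not tested.

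**Figure D3:**
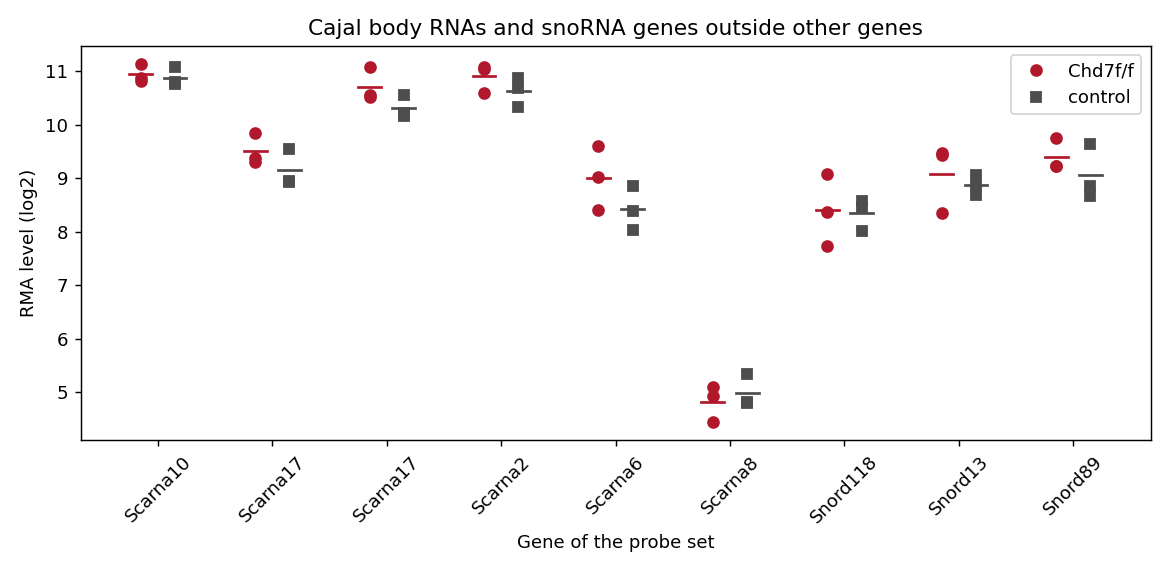
RMA levels on the log2 scale are drawn for the 6 Cajal body probe sets, 2 of them for Scarna17, and for Snord89, Snord118 and Snord13. Snord89, Snord118, Snord13 and Scarna2 lie inside no annotated protein-coding or long noncoding gene. Circles are Chd7f/f arrays, squares control arrays and bars the group means. The groups overlap for each of the 9 probe sets.

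The 4 members that lie inside no annotated protein-coding or long noncoding gene were all higher in Chd7f/f on average. Their median difference was 0.24. Snord118, which is U8 and acts in maturation of 5.8S and 28S ribosomal RNA, was at 7.74, 8.38 and 9.08 in Chd7f/f, against 8.02, 8.56 and 8.46 in the control. Its difference was 0.05 (SE 0.35), and both the lowest and the highest value were of Chd7f/f. Snord13, which is U13 and in human cells guides acetylation of 18S ribosomal RNA, was at 9.47, 8.35 and 9.43 in Chd7f/f, against 8.69, 9.06 and 8.87 in the control (difference 0.21, SE 0.31). Here Chd7f/f replicate 2 was the lowest array and the other 2 Chd7f/f arrays the highest. Snord89 was at 9.75, 9.22 and 9.23 in Chd7f/f, against 8.67, 9.64 and 8.85 in the control, a difference of 0.35 (SE 0.29), with control replicate 2 inside the Chd7f/f range.

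Of the RNAs named above for precursor cleavage, U17 and U22 come from noncoding hosts. Snora73a, a copy of U17 in Snhg3, was at 8.83, 8.44 and 8.97 in Chd7f/f, against 8.59, 8.79 and 8.30 in the control. Snora73b, the other copy, was at 7.79, 8.10 and 7.55 in Chd7f/f, against 8.13, 8.45 and 7.72 in the control. The differences of the copies had opposite signs, 0.19 (SE 0.19) and -0.28 (SE 0.23), and that of Snora73b was the lowest of all members. Near-identical copies can share probes, so their split is uncertain. Snord22 had a difference of 0.00 (SE 0.13).

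Some of the larger differences rested on 1 array. Snora44, an H/ACA RNA in Snhg12, had the largest difference of all members, 0.76 (SE 0.69). It was at 10.90, 10.40 and 10.28 in Chd7f/f, against 10.74, 10.45 and 8.09 in the control, so a single control array lay more than 2 units below the others. Without control replicate 3 the difference was -0.07. Snora62, in the ribosomal protein gene Rpsa, was at 12.16, 10.48 and 11.58 in Chd7f/f, against 10.91, 11.33 and 10.89 in the control (difference 0.36, SE 0.42). Leaving out Chd7f/f replicate 1 gave a difference of -0.02, and leaving out its replicate 2 gave 0.82. Snora68 was at 6.76, 7.92 and 7.71 in Chd7f/f, against 7.68, 7.87 and 7.55 in the control (difference -0.24, SE 0.31), and at 0.12 without Chd7f/f replicate 1.

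Snord37, Snora74a and Snora61 kept a positive difference with any 1 array left out, but its size also depended on single arrays. Without Chd7f/f replicate 1 it was 0.14 for Snord37 and 0.14 for Snora74a. Without control replicate 3 it was 0.15 for Snora61. Snord37, in the elongation factor gene Eef2, was at 7.01, 6.68 and 6.48 in Chd7f/f, against 6.48, 6.38 and 6.47 in the control. It was the only member with every Chd7f/f value above every control value, though its lowest Chd7f/f value and highest control value were equal to 2 decimals (difference 0.28, SE 0.15). Snora74a, a U19 RNA in Snhg4, was at 7.42, 6.72 and 7.02 in Chd7f/f, against 6.69, 6.76 and 6.76 in the control (difference 0.32, SE 0.18). Its control values were close together and only Chd7f/f replicate 2 lay among them. Snora61, in Snhg12, was at 7.94, 7.46 and 7.71 in Chd7f/f, against 7.63, 7.48 and 6.91 in the control (difference 0.36, SE 0.22).

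On the lower side, Snord83b and Snord43 both lie in Rpl3, the gene of a large-subunit ribosomal protein. Snord83b lay between 7.90 and 8.33 in Chd7f/f, against 8.06 to 8.49 in the control, a difference of -0.18 (SE 0.17). Snord43 was at 5.51, 6.52 and 6.12 in Chd7f/f, against 6.63, 5.98 and 5.93 in the control, a difference of -0.13 (SE 0.31). Wdr43, a nucleolar gene, also held a pair. Snord92 was at 6.11, 5.74 and 5.44 in Chd7f/f, against 6.13, 5.81 and 5.88 in the control (difference -0.18, SE 0.19), and Snord53 was at 8.37, 8.60 and 8.64 in Chd7f/f, against 8.81, 8.71 and 8.40 in the control (difference -0.10, SE 0.15). Snord88c and Snord99 had differences of -0.16 and -0.12 (SE 0.12 each). All of these groups overlapped. Among the members that varied most over the 6 arrays, Snora20, in the chaperonin gene Tcp1, was at 4.70, 5.95 and 5.78 in Chd7f/f, against 6.07, 4.76 and 4.97 in the control. Snora78, in Snhg9, was at 6.57, 7.61 and 7.01 in Chd7f/f, against 6.78, 7.27 and 6.34 in the control. Each genotype had arrays at both ends of these ranges.

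By position in RefSeq, 77 of the 81 probe sets had a snoRNA gene lying inside a protein-coding or long noncoding gene. In all, 60 different genes enclosed them. Noncoding RNA genes enclosed 20 probe sets, with a median level of 10.4 over the 6 arrays. Ribosomal protein genes enclosed 19 at 9.70, nucleolar protein genes 11 at 9.03, translation factor genes 6 at 6.60 and other protein-coding genes 21 at 7.96. The median difference was 0.05 within noncoding genes (16 higher, 4 lower), 0.04 within ribosomal protein genes (14 higher, 5 lower), 0.02 within nucleolar protein genes (6 higher, 5 lower), 0.10 within translation factor genes (3 higher, 2 lower, with Snora19 counted once) and 0.03 within other genes (12 higher, 9 lower). Of all probe sets, 45.2% were higher.

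Many hosts of this kind start with a run of pyrimidines, the terminal oligopyrimidine tract that ties translation of ribosomal protein messages to growth signals in vertebrate cells. A run of at least 8 C or T between 5 bases before and 20 bases after the annotated start was found on the gene's strand in 9 of the 47 enclosing genes in the promoter table (19.1%), against 2689 of 27025 genes of the whole table (9.95%). It was found in 5 of 10 noncoding hosts, 3 of 9 ribosomal protein hosts, 1 of 17 other protein-coding hosts, 0 of 6 nucleolar hosts and 0 of 5 translation factor hosts. A match is a description of these letters. The run may begin anywhere in the window, not only at the first transcribed base, and the annotated start may differ from the one used. A match or its absence therefore does not show whether a transcript starts with such a tract. The 45 bases around the start (20 before it and 25 from it on) are shown for hosts named here, from RefSeq in GRCm38.p6, with the run in capitals.
Snhg12, chr4:132308658-132308702, plus strand: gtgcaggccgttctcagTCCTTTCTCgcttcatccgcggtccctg
2410006H16Rik, chr11:62602857-62602901, plus strand: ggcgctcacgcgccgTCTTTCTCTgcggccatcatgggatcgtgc
Snhg1, chr19:8723467-8723511, plus strand: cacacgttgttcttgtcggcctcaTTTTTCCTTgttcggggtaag
Rpl13a, chr7:45128721-45128765, minus strand: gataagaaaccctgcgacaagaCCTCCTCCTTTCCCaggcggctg
Rps12, chr10:23787185-23787229, minus strand: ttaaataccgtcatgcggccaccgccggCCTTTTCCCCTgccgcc
Nop58, chr1:59684986-59685030, plus strand: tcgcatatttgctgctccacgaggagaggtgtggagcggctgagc
Chd8, chr14:52257736-52257780, minus strand: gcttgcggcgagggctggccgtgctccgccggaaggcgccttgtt
Htr2c, chrX:146962493-146962537, plus strand: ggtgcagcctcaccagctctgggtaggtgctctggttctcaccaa
The last 3 hold no such run.

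Snord35a in Rpl13a, whose host start holds a run, was at 11.93, 11.61 and 11.67 in Chd7f/f, against 11.62, 11.90 and 11.67 in the control. Snord47 in Gas5, a noncoding host, was at 11.54, 11.26 and 11.50 in Chd7f/f, against 11.44, 11.39 and 11.19 in the control. Snord8 lies in Chd8, a gene of the same remodeller family as Chd7, and was at 10.67, 9.94 and 10.41 in Chd7f/f, against 10.27, 10.44 and 10.25 in the control (difference 0.02, SE 0.20). Chd8 itself was at 9.44, 9.24 and 9.33 in Chd7f/f, against 9.20, 9.15 and 9.12 in the control. Every Chd7f/f value of Chd8 was above every control value, by a difference of 0.18, without passing the test, while the values of Snord8 overlapped.

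Members that share a host had like differences in some hosts and unlike ones in others. The pair in Kansl2 had -0.11 and -0.10, while the pair in Snhg3 had -0.28 and 0.19. Of 11 hosts with at least 2 members, 2 had 3 or more. Snhg12 encloses 4 members with differences of -0.12 for Snord99, 0.04 for Snora16a, 0.36 for Snora61 and 0.76 for Snora44. Snord99 was at 11.35, 11.25 and 11.37 in Chd7f/f, against 11.49, 11.59 and 11.25 in the control. The Snhg12 transcript was at 6.20, 6.49 and 6.05 in Chd7f/f, against 6.94, 6.53 and 6.39 in the control, with a difference of -0.37 (SE 0.19). All 4 members had their lowest value on control replicate 3, by little for Snord99 and by far for Snora44.

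The second host, 2410006H16Rik, encloses 3 C/D members that were steady. Snord49a was at 10.25, 10.41 and 10.52 in Chd7f/f, against 10.10, 10.56 and 10.45 in the control. Snord65 was at 10.94, 11.11 and 11.02 in Chd7f/f, against 10.93, 11.07 and 11.02 in the control. The differences were 0.02 for Snord49a, 0.06 for Snord49b and 0.01 for Snord65, and the host transcript differed by 0.06 (SE 0.22).

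**Figure D4:**
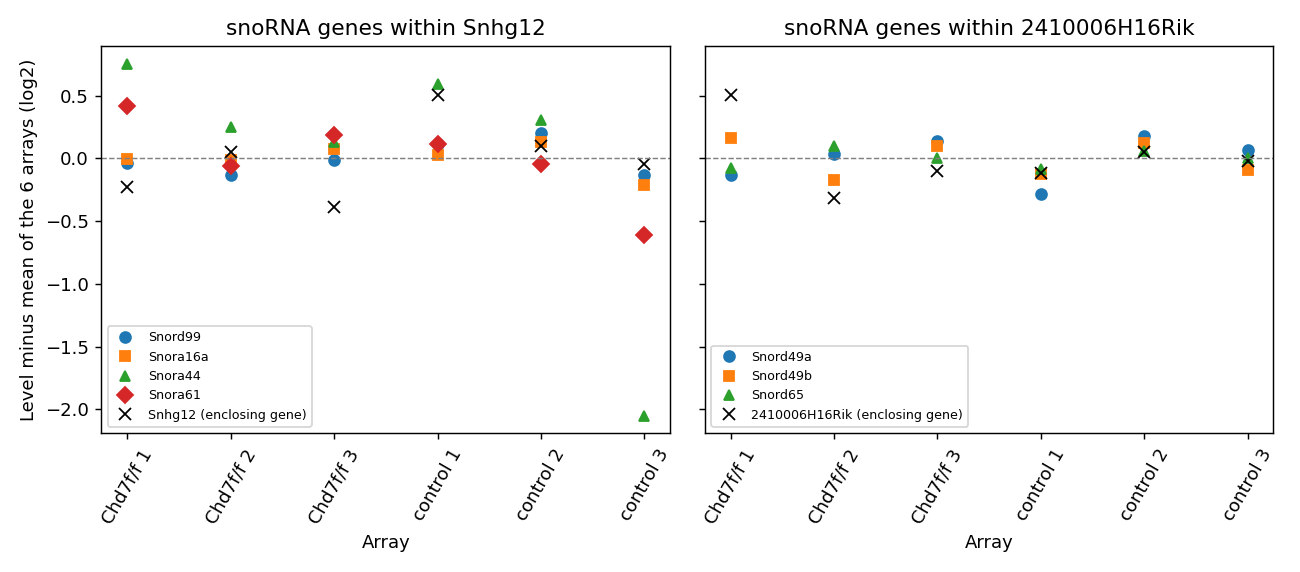
Levels of the members within each of the 2 hosts, and of the host transcript, are drawn as deviations from their own mean over the 6 arrays on the log2 scale. Within Snhg12, Snora44 lies far below the rest on control replicate 3, and the 3 members within 2410006H16Rik keep within 0.3 of their means.

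The host was measured by a probe set of its own for 64 of the 81 members, giving 48 hosts. The sign of the difference was the same for the member and its host in 33 of the 64. The median difference of the 48 hosts was -0.03, with 18 higher and 30 lower in Chd7f/f, where 45.2% of all probe sets were higher. Of the 48, 1 had an unadjusted p under 0.05, near the 2.40% of all probe sets. This was Rpl3 (limma, adjusted p = 0.9997). It was at 11.50, 11.68 and 11.78 in Chd7f/f, against 10.68, 11.10 and 10.89 in the control, a difference of 0.76 (SE 0.15) with no overlap. Chd8 and Atg16l1 were the other hosts that were higher with no overlap, so 3 of 48 were, against 3.13% of all probe sets. On the lower side 0 of 48 had no overlap, against 4.67% of all probe sets. The 2 members in Rpl3 had differences below 0, as given above. Nop58 and Ncapd2 lay on the other side, at -0.44 and -0.53, while their members Snord11, Snord70 and Scarna10 had differences of -0.10, 0.06 and 0.06. Both host values rested on Chd7f/f replicate 1, and without it they were -0.13 for Nop58 and 0.17 for Ncapd2.

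**Figure D5:**
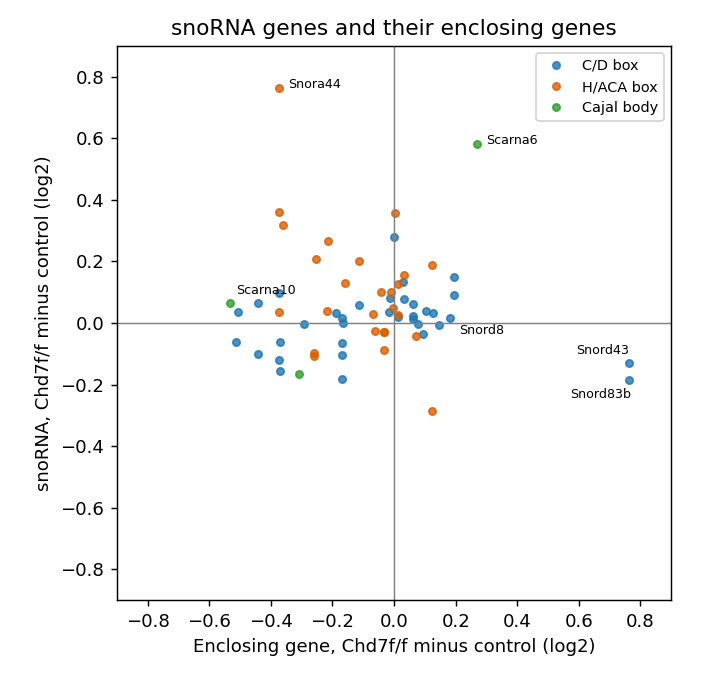
Each point is 1 of the 64 probe sets with a measured enclosing gene, placed by the Chd7f/f minus control difference of that gene (horizontal) and of the member (vertical), both on the log2 scale and coloured by class. Most members lie within 0.2 of 0 vertically, and the pair from Rpl3 lies at 0.76 horizontally and below 0 vertically.

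The proteins of the particles had lower means in Chd7f/f, without passing the test, and these values rested in large part on Chd7f/f replicate 1. Of the C/D core, 3 of 4 were measured and 0 had an adjusted or an unadjusted p under 0.05. The differences were -0.44 for Nop58, -0.37 for Nop56 and -0.30 for Snu13. Of the H/ACA core, 4 of 4 were measured, also with 0 at either threshold, and the differences were -0.49 for Dkc1, -0.31 for Nhp2, -0.27 for Gar1 and -0.23 for Nop10. Dkc1 was at 8.24, 9.76 and 9.49 in Chd7f/f, against 9.94, 9.33 and 9.69 in the control. Its lowest value, like that of the list as a whole, was on Chd7f/f replicate 1. The mean of the H/ACA core deviated from its 6-array average by -0.96, 0.32 and 0.15 on the Chd7f/f arrays, against 0.29, -0.0050 and 0.20 on the control arrays. Without that array the difference of Dkc1 was -0.03, and those of Nop56 (0.07), Nhp2 (0.16), Gar1 (0.07) and Nop10 (0.08) were above 0. Those of Nop58 (-0.13) and Snu13 (-0.03) were smaller in size but stayed below 0.

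The mean of the C/D core deviated from its 6-array average by -0.87, 0.20 and 0.11 on the Chd7f/f arrays, against 0.35, -0.02 and 0.22 on the control arrays. Among 29 measured ribosome biogenesis genes, 2 were higher and 27 lower, with a median difference of -0.19. None passed the adjusted test. An unadjusted p under 0.05 was found for 1 of the 29, where 2.40% of all probe sets passed. This was Imp4, a protein of the U3 particle, with a difference of -0.35. Of 9 Cajal body and trafficking genes, 5 were higher and 4 lower (median 0.04), with -0.45 for Nolc1, a nucleolar and Cajal body phosphoprotein, and 0.16 for Tgs1, the enzyme that trimethylates the caps of U3 and other RNAs. Assembly factors were 1 higher and 8 lower of 9 (median -0.12), and 3′ processing and decay genes 4 higher and 5 lower of 9 (median -0.12), with 0 past either threshold in these 3 lists. Without Chd7f/f replicate 1 the median difference was 0.02 for ribosome biogenesis, with 18 genes higher and 11 lower, 0.13 for assembly factors and 0.09 for 3′ processing and decay genes, so the direction of these 3 lists turned.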

How the data were processed

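The authors deposited 1 log2 value per probe set and array, made with Affymetrix Expression Console and RMA per the submitters' processing notes. No version or parameter of either is given in these sources. RMA equalises array distributions, so a shift of all RNAs cannot be seen. The array is the mouse Gene 2.0 ST by the design text, while the labelling protocol names a human-type one; the probe sets carry mouse genes. The table holds 41345 probe sets between 1.78 and 13.5, with 0 missing values. Of these, 23521 had 1 symbol, 1814 several and 16010 none listed. Detection calls were not used here, and the number of arrays limits precision.

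All probe sets with 1 symbol were fitted with limma 3.58.1 in R 4.3.3 (lmFit, eBayes, no filter, no covariate), with Benjamini-Hochberg adjustment over all of them. Each array's median was taken over all 41345 probe sets. Every probe set was kept, including 2 per gene where a gene had 2. Enclosing genes came from RefSeq positions (assembly GRCm38.p6), where all 81 members were found. Only protein-coding and long noncoding genes that hold the whole snoRNA gene were counted, so partial overlaps and other gene types were not searched. The plan asked for the same strand, but that table gives none, so a host may lie on the other strand; 6 members had more than 1 enclosing gene. The hosts of some members are not reported here. The samples are called independent by the design text, and p-values measure the spread between them.

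Named were the 10 members with the largest and the 10 with the lowest difference, the 5 highest per class, the 3 lowest, the 5 most variable, members of hosts with 3 or more, ribosomal RNA processing members, and up to 4 genes per list. Snora35, Snord8, Snord35a and Snord47 were added for their hosts after their values were seen. Members and lists were chosen with earlier results of these data known. Alternatives were quantile normalization, median centring, filters at the 30th and 50th percentile, 1 value per gene, a trended robust prior, array weights, a replicate block, other thresholds and leaving out each array. The fit was tested on simulated data. Plots were drawn with matplotlib 3.10.9.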

Additional observations from a re-analysis of the deposited data

How the results depend on the processing

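No member reached an adjusted p under 0.05 (limma) in any fit run, those without 1 array included, where the count stayed at 0. Without 1 array, the count of members with an unadjusted p under 0.05 ran between 0 and 4, the count of those also at least 1.5-fold higher between 0 and 2, and of those lower it was 0. Members with no overlap numbered 1 to 15 on the higher side and 2 to 4 on the lower side with 1 array left out; the 15 came without Chd7f/f replicate 2 and 13 without control replicate 2. Over all probe sets those shares were 6.45% to 8.83% higher and 8.38% to 10.5% lower in the same fits, and 2.19% to 3.53% had an unadjusted p under 0.05. With quantile normalization there were 0 on either side, and with median centring 0 on the higher side. The median difference ran between 0.02 and 0.07 for all members, 0.01 and 0.07 for C/D, 0.02 and 0.09 for H/ACA and 0.19 and 0.45 for Cajal body RNAs with 1 array left out. The level above the array median was 5.02 for C/D with either filter, 3.39 for H/ACA and 5.73 for Cajal body RNAs with the 50th percentile filter or the highest probe set per gene, and 3.39 for H/ACA with probe sets averaged per gene; the filters kept 78 and 75 of 81 probe sets, fewer of the low ones. Of all 81 differences, 49 changed sign without some array, most of them small. Among the 20 members named for their difference these were Snora44 (-0.0719 to 1.25), Snora62 (-0.0197 to 0.82), Snora68 (-0.46 to 0.12), Scarna8 (-0.30 to 0.0258) and Snord43 (-0.36 to 0.14), and elsewhere Snord118 (-0.29 to 0.38) and Snord8 (-0.15 to 0.22). With array weights Snord43 was at 0.0313 and Snord53 at 0.0041; the cause was not tested. With the replicate number as a block there were 0 calls and the median difference was 0.04. Same-numbered arrays correlated at 0.016, -0.032 and 0.038 in their deviations from the group means. Pairs with unlike numbers correlated at -0.10 to 0.08. With so few arrays per genotype, these values cannot decide whether the numbers mark a pairing.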

Other observations

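A further 46 probe sets named a snoRNA among several symbols and were left out above because their gene is uncertain. Of these, 16 named Snord116, a C/D family of the imprinted Prader-Willi region that is known from brain, and hold 1 identical set of values. That set lay between 3.42 and 3.75 and was below the array median on all 6 arrays. Of the other 30, 25 were above the array median on all arrays, and their median lay 3.88 above it.

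With 1 array left out, 8 members had an unadjusted p under 0.05 in some fit, all of them higher in Chd7f/f. These are 8 of 486 tests over the 6 fits (1.65%), while 2.19% to 3.53% of all probe sets passed in each fit. Without Chd7f/f replicate 2 the count was 4 of 81, where 2.27% of all probe sets passed. The fits share arrays, so these are not separate tests. The share of all probe sets that passed in some fit was not computed. The members are listed as a description only. They were Scarna6 (0.88), Snora74a (0.49), Snord13 (0.57) and Snora62 (0.82) without Chd7f/f replicate 2, Snord89 (0.64) and Scarna17 (0.57) without control replicate 2, Snord85 (0.33) without Chd7f/f replicate 1 and Snord37 (0.40) without Chd7f/f replicate 3. None had an adjusted p under 0.05 (limma), and the smallest adjusted p of a member in these fits was 0.985.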
